A study of Mus musculus with 4 samples.

Results

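The genes described here encode proteins that receive and pass on the canonical Wnt signal in muscle stem cells (MuSCs): the frizzled receptors Fzd1, Fzd4 and Fzd7, the co-receptors Lrp5 and Lrp6, the scaffold proteins Axin1 and Axin2, and the DNA-binding factors Tcf7l1, Tcf7l2 and Lef1. They were taken by name, 10 genes of the 32285 in the count tables, and the rule used no measured level. Their levels were followed in single cells of 4 mouse samples, 2 control and 2 α-cdKO. Control mice carried Pax7CreERT2/+ and the Rosa26-tdTomato reporter without floxed α-catenin alleles, and α-cdKO mice carried Ctnna1 fl/fl and Ctnna3 fl/fl in addition. Both groups received tamoxifen, were aged 3 to 4 months and were sampled 14 days after tamoxifen. Each sample pooled 2 littermates, and tdTomato+ cells of the hindlimb were sorted and loaded for 3′ single cell RNA sequencing. The Pax7 promoter drives the recombinase, so deletion was limited to Pax7-expressing cells and their progeny, and it need not have been complete in every sorted cell. One comparison of interest was whether loss of α-catenins, which join cadherin-bound β-catenin to actin, went together with a change in the genes that carry the β-catenin signal.

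The tables held 48515992 unique molecular identifiers (UMIs, 1 per captured RNA molecule) in control 1, 46099310 in control 2, 73261352 in α-cdKO 1 and 74921651 in α-cdKO 2. A minimum of 1000 UMIs and 400 genes per cell and a mitochondrial share below 15% left 5484, 5354, 9786 and 8166 cells in the same order, 28790 in all, with median depths of 7723.5, 8075, 6452.5 and 7682.5 UMIs. Pairs of samples shared between 10 and 28 cell barcodes out of 5853 to 10649 per sample. Of the kept cells, 27142 (94.3%) lay in myogenic clusters, numbering 5282, 4479, 9401 and 7980 in the 4 samples. α-cdKO 1 stood apart from the other samples before any comparison was made: 4946 of its myogenic cells held Xist but no Y-linked RNA and 2840 held Y-linked but no Xist RNA, so it contained cells of both sexes, whereas each of the other 3 samples held at most 1 Xist-only cell.

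Myogenic cells fell into 5 clusters that were drawn without the 10 genes and without 104 other Wnt genes. Quiescent-like cells (827, 895, 1394 and 1362 in control 1, control 2, α-cdKO 1 and α-cdKO 2) were led by Fos, Jun and Hes1. Activated-like cells (2730, 2023, 4306 and 3534) were led by Cxcl3, Cxcl2 and Dio2. A cluster led by heat-shock and chaperone genes such as Dnaja4 and Hsph1 (1545, 1318, 2601 and 2607 cells) received no cell state name and is called chaperone-led. Cycling-like cells (30, 80, 404 and 121) and differentiated-like cells (150, 163, 696 and 356, led by Cdkn1c and Myog) were fewer. In α-cdKO 1, 312 of the cycling-like and 585 of the differentiated-like cells were Xist-only, against 34 and 49 that were Y-linked-only. Its levels in these 2 states thus came mostly from Xist-only cells, and the part of sex in them was not tested. The labelled cell type was present: Pax7, the transcription factor that marks MuSCs, averaged 178 CPM (counts-per-million, the UMIs of a gene scaled to the total of the named cells in a sample) in quiescent-like and 38.9 in activated-like cells, and Myod1, the factor of myogenic commitment, averaged 102 and 851. Fos, an immediate early gene that cell dissociation also induces, averaged 3569 CPM in quiescent-like and 63.9 in activated-like cells. 

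Canonical Wnt ligands bind a frizzled receptor together with Lrp5 or Lrp6, which draws Axin to the membrane and stops the Axin-based destruction complex from marking β-catenin for degradation. Stabilised β-catenin then enters the nucleus and joins TCF/LEF factors on target genes, among them Axin2, which feeds back on the pathway and is widely used as a readout of it. In skeletal muscle, Wnt signals are known to act on the proliferation and differentiation of MuSC progeny, and Fzd7 is also a known receptor for Wnt7a in MuSC expansion.

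The axin scaffolds are Axin1 (ENSMUSG00000024182, chromosome 17, 26138688 to 26195811, plus strand of GRCm38) and Axin2 (ENSMUSG00000000142, chromosome 11, 108920349 to 108950783, plus strand). Fzd7 (ENSMUSG00000041075) lies on chromosome 1 from 59482424 to 59486955, plus strand, Fzd1 on chromosome 5 from 4753839 to 4758035, minus strand, and Fzd4 on chromosome 7 from 89404355 to 89413134, plus strand. Lrp5 occupies 3584828 to 3686564 of chromosome 19 and Lrp6 134446476 to 134566965 of chromosome 6, both on the minus strand. Tcf7l1 spans 72626378 to 72789254 of chromosome 6, minus strand, Tcf7l2 55741820 to 55933654 of chromosome 19, plus strand, and Lef1 131110471 to 131224356 of chromosome 3, plus strand. All 10 are annotated as protein-coding. An annotated antisense gene inside Axin2, Gm11670, had 0 UMIs in all 4 samples. Axin2 and Fzd7 moved together between states, as described below, so the 250 bases before their RefSeq start sites (GRCm38.p6, both on the plus strand, at chr11:108920099-108920348 and chr1:59481897-59482146) are shown, with the letters of a TCF/LEF motif in capitals.
Axin2: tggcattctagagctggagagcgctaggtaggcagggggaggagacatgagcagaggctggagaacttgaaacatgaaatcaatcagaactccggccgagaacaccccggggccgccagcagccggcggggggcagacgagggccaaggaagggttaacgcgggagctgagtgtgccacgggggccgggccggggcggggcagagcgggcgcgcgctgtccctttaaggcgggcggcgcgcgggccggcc
Fzd7: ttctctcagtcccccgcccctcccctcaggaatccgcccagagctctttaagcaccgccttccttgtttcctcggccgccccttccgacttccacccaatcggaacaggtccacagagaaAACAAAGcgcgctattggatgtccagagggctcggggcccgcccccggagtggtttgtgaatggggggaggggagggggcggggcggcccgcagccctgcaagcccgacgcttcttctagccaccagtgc
Searched on both strands, the motif letters were CTTTGAT, found in 3.21% of 32851 RefSeq windows of this kind, and CTTTGTT, found in 5.03%; 8.06% of windows held at least 1 of them. The Fzd7 window held 1 match, which reads AACAAAG on the strand shown, and the Axin2 window held none of these letters. RefSeq windows were at hand for 7 of the 10 genes, 11 windows in all, so a count of genes does not compare with the share of windows. Tcf7l2 was the other gene with a match, in its window that starts at 55895071 of chromosome 19 and not in the one that starts at 55741560. Such a match is a description of letters and not of binding, which was not measured.

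Across all myogenic cells the number of molecules behind each gene differed widely, and with it the precision. Lrp6 was backed by 13622 UMIs, Tcf7l2 by 10770, Fzd4 by 5944, Tcf7l1 by 3407, Axin1 by 2870, Lrp5 by 1417, Fzd1 by 1115, Fzd7 by 488, Axin2 by 238 and Lef1 by 30. The 3 genes with the fewest molecules were thus Fzd7, the feedback target Axin2, and Lef1, the TCF/LEF factor that is itself a Wnt target in many tissues. Lef1 had 4, 6, 14 and 6 UMIs in control 1, control 2, α-cdKO 1 and α-cdKO 2, or 0.0858, 0.146, 0.20 and 0.0821 CPM, and was too sparse to test. Of its 30 UMIs, 14 came from differentiated-like cells (1, 1, 8 and 4 in the same sample order) and 1 from a quiescent-like cell.

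**Figure D1:**
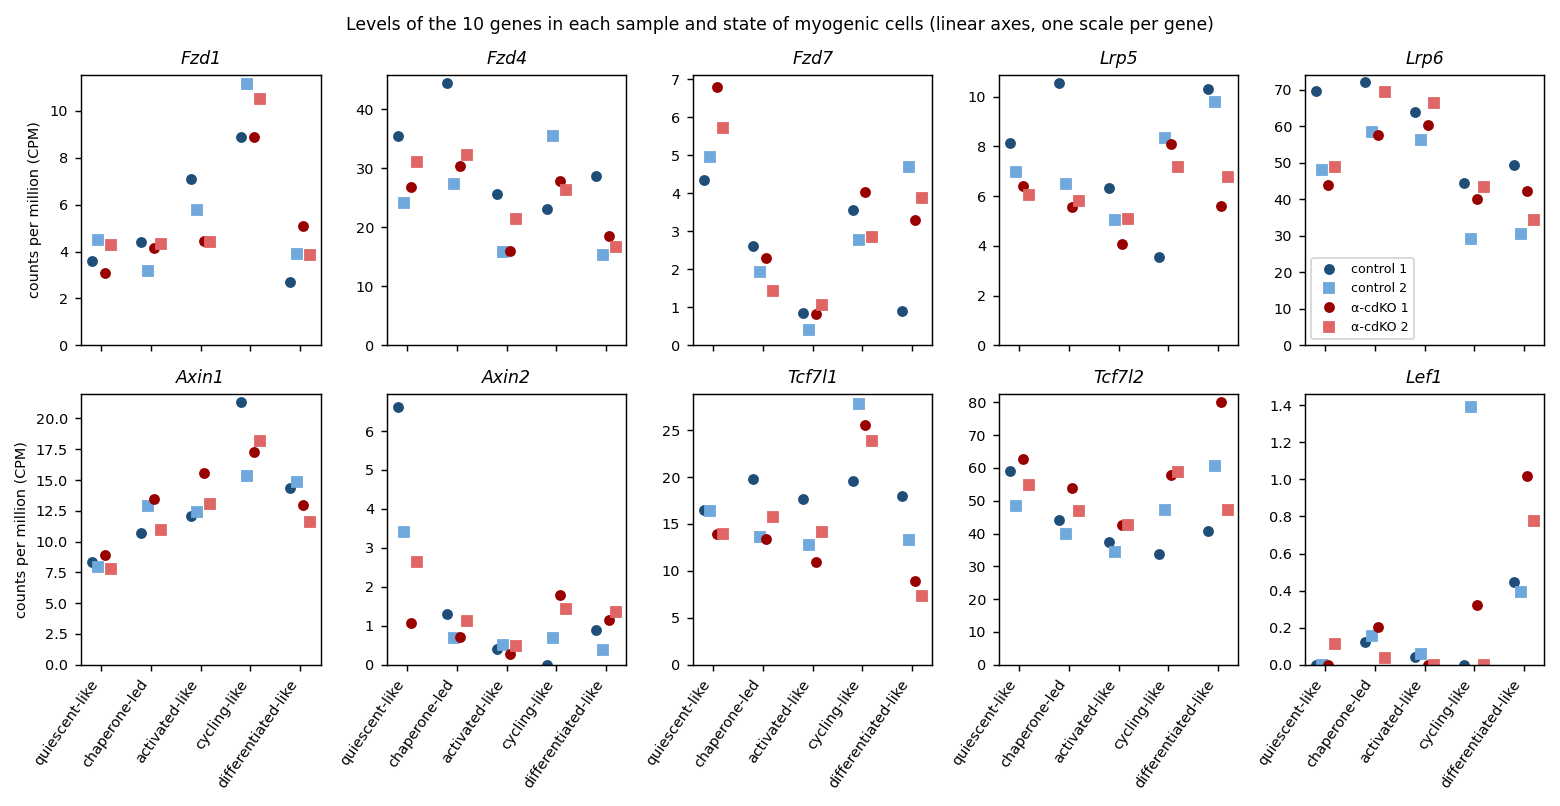
Level of each of the 10 genes, in CPM on a linear axis with its own scale, in the 5 states of myogenic cells; each point is 1 sample (blue, control; red, α-cdKO). Axin2 and Fzd7 are higher in quiescent-like than in activated-like cells of every sample, and Axin1 is lowest in quiescent-like cells of every sample.

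Axin2 and Fzd7 had the largest differences between quiescent-like and activated-like cells among the 9 genes tested, and both were higher in quiescent-like cells. Axin2 stood at 6.62 and 3.41 CPM in quiescent-like cells of control 1 and 2 and at 1.07 and 2.64 in those of α-cdKO 1 and 2. In activated-like cells of the same samples it stood at 0.40, 0.509, 0.277 and 0.484. The quiescent-like level was thus above the activated-like level in all 4 samples, by 3.85-fold to 16.5-fold, and the states did not overlap. The log2 fold change of activated-like over quiescent-like cells was −2.68 (SE 0.39, adjusted p = 2.4e-06, edgeR quasi-likelihood test with the sample as a block, Benjamini-Hochberg adjustment over 12206 genes). These counts are small, with 89 UMIs in quiescent-like and 40 in activated-like cells of all samples together. The states were drawn from these same cells, though without these genes, so p-values between states are not an independent test. They set a mean difference against the variation between libraries and do not show that each of the 4 samples shared it. A large share of all genes separated these states: 32.2% were called higher and 43.3% lower in activated-like cells, and the median of all genes was −0.21.

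Fzd7, the frizzled receptor that binds Wnt7a in MuSCs, stood at 4.35, 4.96, 6.81 and 5.72 CPM in quiescent-like cells of control 1, control 2, α-cdKO 1 and α-cdKO 2. In activated-like cells it stood at 0.845, 0.396, 0.832 and 1.07. The states did not overlap, the difference was 5.15-fold to 12.5-fold within samples, and Fzd7 was highest in quiescent-like cells in all 4 samples. The log2 fold change was −2.54 (SE 0.26, adjusted p = 2.4e-08, edgeR). Of all genes tested, 8.84% were called lower by a log2 fold change of at least 2, and Axin2 and Fzd7 were the 2 of the 9 tested members in that class. Summed markers of other cell types (endothelial, tenocyte, mural, fibro-adipogenic, immune, glial and mature muscle) were also lower in activated-like cells of all 4 samples. Their part in these differences was not tested.

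**Figure D2:**
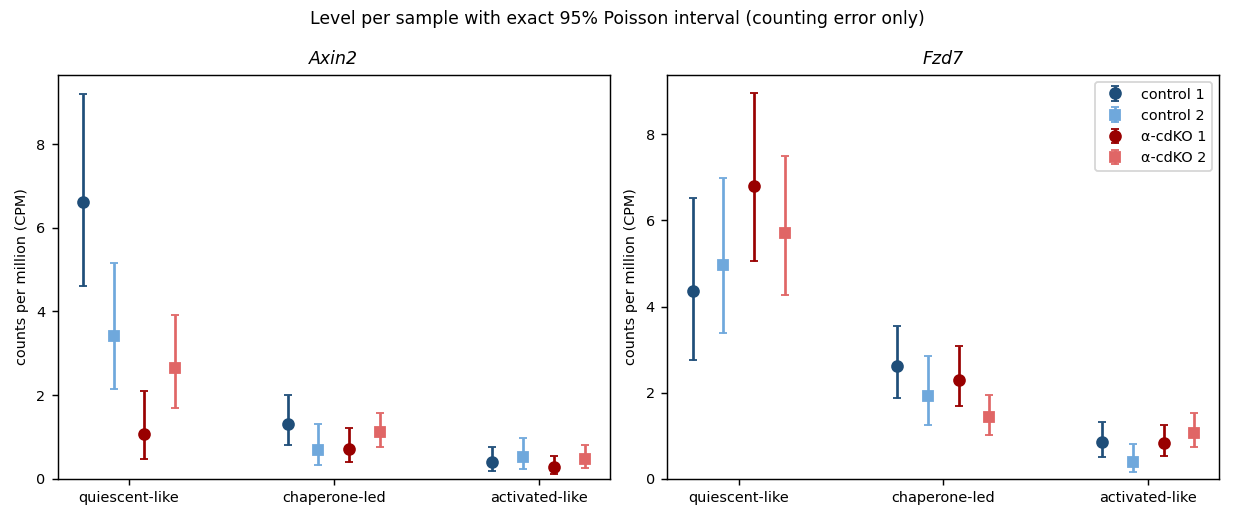
Axin2 (left) and Fzd7 (right) in CPM of each sample in quiescent-like, chaperone-led and activated-like cells, with exact 95% Poisson intervals that cover counting error only. In quiescent-like cells, Axin2 runs from 1.07 in α-cdKO 1 to 6.62 in control 1 while Fzd7 stays between 4.35 and 6.81, and in activated-like cells no sample exceeds 1.07 for either gene.

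Chaperone-led cells, compared in a fit added after the data had been seen, lay between the other states for both genes. This cluster held 1090 of the 1640 myogenic cells with top doublet scores, 13.5% of its cells against 1.61% of quiescent-like and 2.98% of activated-like cells, and their part in the intermediate level was not tested. Axin2 stood at 1.31, 0.695, 0.717 and 1.11 CPM there in control 1, control 2, α-cdKO 1 and α-cdKO 2, and Fzd7 at 2.62, 1.93, 2.30 and 1.44. Fzd7 fell by 1.32 on the log2 scale from quiescent-like to chaperone-led cells (adjusted p = 5.2e-05, edgeR), where 40.1% of all genes were called lower and 27.4% higher, and Axin2 fell by 1.59 (adjusted p = 0.000152). From chaperone-led to activated-like cells, where 22% of all genes were called lower and 23.4% higher, Fzd7 fell by a further 1.21 and Axin2 by 1.10. Axin1 ran the other way at both steps (0.66 and 0.26). Fzd4, at 44.4, 27.3, 30.4 and 32.3 CPM in chaperone-led cells, was above both neighbouring states in all 4 samples, with a log2 fold change of 0.30 over quiescent-like cells (adjusted p = 0.0176) and a fall of 0.67 to activated-like cells (adjusted p = 1.3e-05).

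The share of cells with at least 1 UMI gave the same order of states for both genes in cells thinned to 2000 UMIs, with shallower cells left out (4343 of 4478 quiescent-like and 12461 of 12593 activated-like cells remained). An Axin2 UMI was found in 19 of 4343 quiescent-like cells (0.437%, exact binomial 95% interval 0.264 to 0.682) and in 9 of 12461 activated-like cells (0.0722%, 0.0330 to 0.137). Without thinning the shares were 1.74% and 0.302%, at median depths of 5808.5 and 7160 UMIs. A Fzd7 UMI was found in 1.27% of quiescent-like and 0.249% of activated-like cells after thinning. Both genes were therefore seen in very few cells of either state at this depth. The more abundant members were seen more often, Tcf7l2 in 10.7% and 7.15%, Fzd4 in 5.53% and 3.47%, Lrp6 in 9.56% and 10.4% and Axin1 in 1.47% and 2.72% of thinned quiescent-like and activated-like cells. Among endothelial cells in the same samples, a share of 1.79% held a Fzd7 UMI, and 0 of 168 held an Axin2 UMI, which allows a share of up to 1.79% by 3 counts and 2.17% by the exact interval. Without thinning, 2 of 178 held one, so these cells set no useful background for Axin2. The intervals cover counting error only.

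The other frizzled receptors moved less, and in opposite directions. Fzd4, a receptor for Wnts and for norrin, stood at 35.4, 24.2, 26.8 and 31.0 CPM in quiescent-like cells of control 1, control 2, α-cdKO 1 and α-cdKO 2 and at 25.7, 15.8, 15.9 and 21.3 in activated-like cells. It was lower in activated-like cells of all 4 samples, though the ranges of the 2 states overlapped (log2 fold change −0.38, SE 0.13, adjusted p = 0.0113, edgeR). The call was lost without α-cdKO 1 (adjusted p = 0.0659), without α-cdKO 2 (0.0775) and without the filter on low counts (0.0506). Fzd1, a receptor for canonical Wnts, stood at 3.59, 4.49, 3.07 and 4.29 in quiescent-like and at 7.12, 5.77, 4.44 and 4.43 in activated-like cells. It was higher in activated-like cells (log2 fold change 0.66, SE 0.20, adjusted p = 0.0049), with the smallest gap in α-cdKO 2, and the ranges of the 2 states overlapped. In cycling-like cells Fzd1 stood at 8.88, 11.1, 8.89 and 10.5 CPM, its highest level in each sample.

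The co-receptors did not share a direction. Lrp6 stood at 69.8, 48.0, 44.1 and 48.9 CPM in quiescent-like and at 63.9, 56.3, 60.4 and 66.4 in activated-like cells of control 1, control 2, α-cdKO 1 and α-cdKO 2. Its scaled level was higher in activated-like cells (log2 fold change 0.46, SE 0.10, adjusted p = 0.000507, edgeR), while the unscaled level was higher in 3 of 4 samples and lower in control 1. Lrp5 stood at 8.14, 6.97, 6.41 and 6.05 in quiescent-like and at 6.32, 5.03, 4.09 and 5.09 in activated-like cells, lower in all 4 samples, and its log2 fold change of −0.22 did not pass the test (adjusted p = 0.234). With library sizes alone in place of composition scaling, Lrp5 gave −0.43 (adjusted p = 0.0212), but the median of all genes then moved from −0.21 to −0.42, so Lrp5 lay at that median. Lrp6 fell from activated-like to cycling-like cells, where it stood at 44.4, 29.2, 40.1 and 43.4 CPM (log2 fold change −1.24, SE 0.12, adjusted p = 2.0e-08).

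Axin1, the constitutive scaffold of the destruction complex, moved against its paralogue Axin2. It stood at 8.32, 7.90, 8.94 and 7.80 CPM in quiescent-like cells of control 1, control 2, α-cdKO 1 and α-cdKO 2 and at 12.1, 12.4, 15.6 and 13.1 in activated-like cells. The states did not overlap, and quiescent-like cells held the lowest Axin1 level of all 5 states in every sample (log2 fold change of activated-like over quiescent-like cells 0.90, SE 0.13, adjusted p = 1.7e-06, edgeR). Cycling-like cells stood at 21.3, 15.3, 17.3 and 18.1 CPM, the highest of the 5 states in each sample. Relative to all genes, however, Axin1 was not called different between cycling-like and activated-like cells, and its sign depended on the scaling, since library sizes alone gave a log2 fold change of 0.37 (adjusted p = 0.0281) with the median of all genes at 0.73.

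Among the TCF factors, Tcf7l2, which joins β-catenin on target genes and can act as activator or repressor, stood at 59.2, 48.3, 62.6 and 54.9 CPM in quiescent-like and at 37.5, 34.4, 42.6 and 42.5 in activated-like cells. It was lower in activated-like cells of all 4 samples, by 1.29-fold to 1.58-fold, without overlap of the states (log2 fold change −0.30, SE 0.12, adjusted p = 0.0314, edgeR). This call lay close to the threshold and was lost under 7 of the alternatives tried, with adjusted p between 0.0544 and 0.109. Tcf7l1, mainly a repressor of Wnt targets, stood at 16.5, 16.4, 13.9 and 13.96 in quiescent-like and at 17.7, 12.8, 10.96 and 14.1 in activated-like cells. These ranges overlapped and the difference did not pass the test (log2 fold change 0.07, adjusted p = 0.691, and −0.14 with library sizes alone). In cycling-like cells Tcf7l1 stood at 19.5, 27.8, 25.5 and 23.9, above activated-like cells in all 4 samples, and its log2 fold change of 0.33 did not pass the test (adjusted p = 0.0940) unless only library sizes were used for scaling (0.94, with the median of all genes at 0.73).

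**Figure D3:**
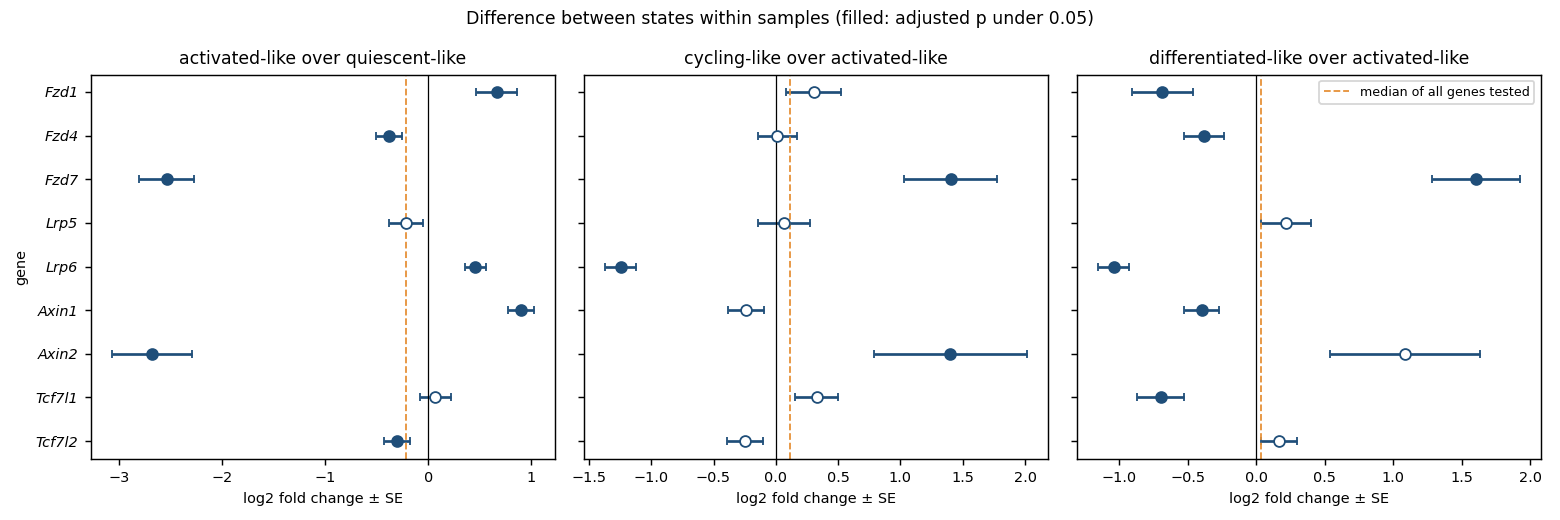
Log2 fold change with standard error of the 9 genes tested between states within samples, with filled points for adjusted p under 0.05 and a dashed line at the median of all genes tested. In the left panel Axin2 and Fzd7 lie far to the left of the median and Axin1 to the right. Scaling by library sizes only is not drawn. It moves the median of the middle comparison from 0.12 to 0.73 and flips the sign of Axin1 and Tcf7l2 there.

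Cycling-like and differentiated-like cells were compared with activated-like cells in the same fit. In cycling-like cells, where 37.8% of all genes were called higher and 31.2% lower, Fzd7 was higher than in activated-like cells (3.55, 2.78, 4.04 and 2.86 CPM in control 1, control 2, α-cdKO 1 and α-cdKO 2, log2 fold change 1.40, SE 0.37, adjusted p = 0.00216, edgeR). That call rested on 37 UMIs, 25 of them from α-cdKO 1, and without this sample the log2 fold change was 1.18 (adjusted p = 0.0922). Axin2 gave 1.40 (SE 0.61, adjusted p = 0.0450) from 0, 1, 11 and 3 UMIs, and without α-cdKO 1 gave 0.51 (adjusted p = 0.633). In differentiated-like cells, where 31.6% of all genes were called higher and 29.5% lower, Fzd7 was again higher than in activated-like cells (0.898, 4.69, 3.31 and 3.88 CPM, log2 fold change 1.60, SE 0.32, adjusted p = 0.00018), with control 1 at the activated-like level on 2 UMIs. Lrp6 (−1.04), Tcf7l1 (−0.70), Fzd1 (−0.68), Axin1 (−0.40) and Fzd4 (−0.38) were called lower in differentiated-like than in activated-like cells, and of these only Lrp6 was still called lower with library sizes alone, which moved the median of all genes from 0.03 to 0.40. Tcf7l2 reached its highest levels in differentiated-like cells of control 2 and α-cdKO 1 (60.6 and 80.2 CPM), against 40.8 in control 1 and 47.3 in α-cdKO 2. The size of the differentiated-like cluster was not stable, at 1365 cells as reported, 477 with all variable genes in the clustering and 676 with the top doublet scores removed.

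The targeted genes were read first in the comparison of genotypes. Ctnna1, which encodes αE-catenin, stood at 91.0 and 74.8 CPM in myogenic cells of control 1 and 2 and at 79.4 and 75.6 in those of α-cdKO 1 and 2, and Ctnna3, which encodes αT-catenin, had 1, 2, 2 and 7 UMIs. The ranges of Ctnna1 overlapped (log2 fold change −0.11, SE 0.14, adjusted p = 0.856, edgeR). The 3′ tags may lie outside the deleted parts of both genes, so these values check neither the deletion nor the labels. Ctnnb1, which encodes β-catenin, stood at 109 and 118 in control and at 133 and 126 in α-cdKO samples, without overlap but short of the threshold (0.18, SE 0.11, adjusted p = 0.753).

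None of the 9 tested genes passed the test between genotypes over all myogenic cells. Of all 14637 genes, 26 (0.178%) passed, and 1032 (7.05%) had an unadjusted p under 0.05, a group that held 0 of the 9. By DESeq2, 121 genes passed, again with 0 of the 9. Axin2 stood at 1.44 and 1.02 CPM in control 1 and 2 and at 0.715 and 1.08 in α-cdKO 1 and 2, with overlapping groups (log2 fold change −0.46, SE 0.34, adjusted p = 0.771, edgeR), and gave −0.10 in Y-linked-only cells. Lrp5 was lower in both α-cdKO samples (8.13 and 6.21 against 5.28 and 5.66, log2 fold change −0.40, SE 0.19, adjusted p = 0.715), and Tcf7l2 was higher in both (42.4 and 40.4 against 53.5 and 46.4, 0.26, SE 0.12, adjusted p = 0.715). Fzd7 (1.89 and 1.95 against 2.45 and 2.04) and Fzd1 (5.60 and 4.82 against 4.68 and 4.50) also did not overlap between groups. In Y-linked-only cells Fzd7 stood at 1.65 and 1.89 against 2.02 and 1.84, and the groups overlapped, while those of Lrp5, Tcf7l2 and Fzd1 did not. These 4 of the 9 genes compare with 38.2% of all genes whose groups did not overlap, 18.4% with the α-cdKO samples higher and 19.8% with them lower. The remaining genes overlapped between groups: Fzd4 stood at 33.4 and 21.4 against 22.5 and 26.5, Lrp6 at 66.4 and 53.2 against 54.1 and 62.4, Axin1 at 11.4 and 12.1 against 14.2 and 11.6, and Tcf7l1 at 18.3 and 14.2 against 13.0 and 14.5. The median log2 fold change of the 9 genes was −0.17, against −0.01 for all genes, with 3 positive and 6 negative. With 2 samples against 2, an exact permutation test of a single value cannot give a two-sided p below 0.3333.

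**Figure D4:**
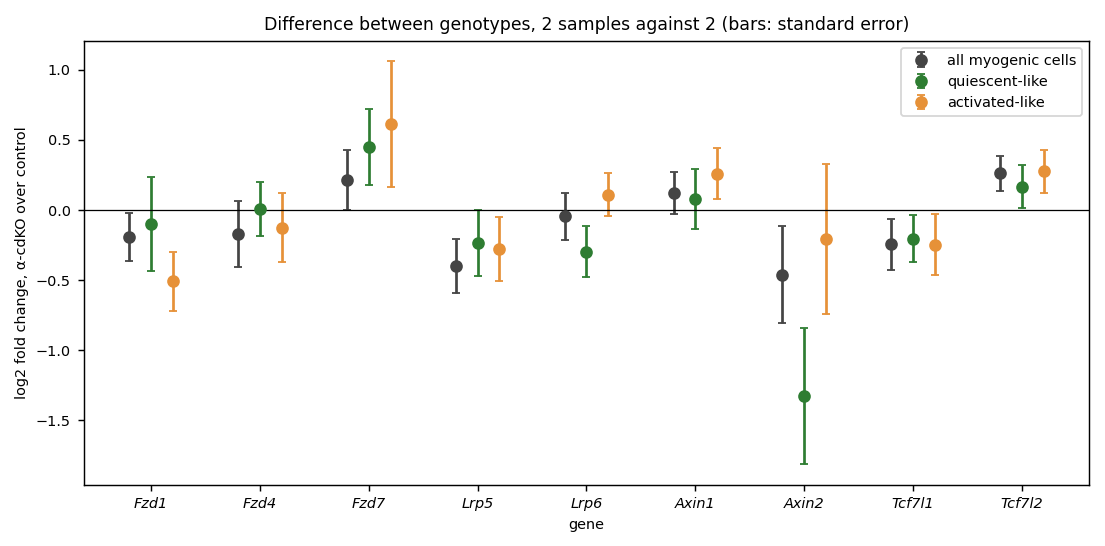
Log2 fold change of α-cdKO over control samples, with standard error, for the 9 genes tested in all myogenic, quiescent-like and activated-like cells. The point farthest from 0 is Axin2 in quiescent-like cells at −1.33, and no point passed the test at an adjusted p of 0.05.

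Within states, Axin2 in quiescent-like cells had the largest genotype difference among these genes, and it did not pass the test. It was 6.62 CPM in control 1 (35 UMIs, exact Poisson 95% interval 4.61 to 9.21) and 3.41 in control 2 (22 UMIs, 2.14 to 5.16). It was 1.07 in α-cdKO 1 (8 UMIs, 0.461 to 2.10) and 2.64 in α-cdKO 2 (24 UMIs, 1.69 to 3.93). Both α-cdKO samples were thus below both control samples, but the intervals of control 2 and α-cdKO 2 overlapped. The log2 fold change was −1.33 (SE 0.49, unadjusted p = 0.0229, adjusted p = 0.513, edgeR), in a comparison where 12 of 11530 genes (0.104%) passed. Pax7 had the same order over the samples in these cells, at 213, 199, 132 and 169 CPM in control 1, control 2, α-cdKO 1 and α-cdKO 2, and its part in the Axin2 difference was not tested. The value depended on single samples, at −0.83 without control 1, −0.85 without α-cdKO 1, −1.72 without control 2 and −2.16 without α-cdKO 2. In quiescent-like cells with Y-linked and no Xist RNA, Axin2 stood at 6.71 and 2.23 in control 1 and 2, at 3.36 in α-cdKO 2 and at 0 in α-cdKO 1 (0 of 1258146 UMIs), so that the groups overlapped between control 2 and α-cdKO 2 (−0.68, adjusted p = 0.942, an alternative added after the data had been seen). A clustering at a finer resolution, run on all myogenic cells again, held 2 quiescent-like clusters of 2853 and 2773 cells. In the one with more Fos (4295, 4730, 2598 and 3614 CPM in control 1, control 2, α-cdKO 1 and α-cdKO 2), Axin2 stood at 6.13, 3.22, 1.31 and 2.46. In the other (Fos at 2205, 2852, 1344 and 2190), it stood at 4.07, 2.00, 0.900 and 3.31. α-cdKO 1 was lowest in both clusters for Axin2 and for Fos, but the other samples did not keep the same order for both genes, and in the second cluster the Axin2 groups overlapped. Pax7 kept the order of Axin2 in the first cluster (209.7, 175, 125 and 152) but not in the second (224, 209, 131 and 171). The part of sex and of Fos in the Axin2 difference was not tested.

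The receptor Fzd7 did not share the direction of Axin2 in quiescent-like cells. Its values of 4.35 and 4.96 in control and 6.81 and 5.72 in α-cdKO samples did not overlap, with a log2 fold change of 0.45 (SE 0.27, adjusted p = 0.703, edgeR). In Y-linked-only quiescent-like cells Fzd7 stood at 3.97 and 6.18 in control and at 6.36 and 5.47 in α-cdKO samples, and the groups overlapped (0.22, adjusted p = 0.972). In the finer quiescent-like cluster with more Fos, it stood at 6.13 and 4.83 against 7.30 and 4.79, and the groups also overlapped. They did not overlap in the other finer cluster (3.05 and 3.72 against 6.30 and 5.30). Over all quiescent-like cells, mural markers summed higher in both α-cdKO samples, and their part in the Fzd7 values was not tested. Tcf7l1 and Lrp5 were lower in both α-cdKO samples, so that groups did not overlap for 4 of the 9 genes, against 40.3% of all genes. In activated-like cells, where 21 of 12281 genes (0.171%) passed, no member passed. Fzd1 came closest there (7.12 and 5.77 in control, 4.44 and 4.43 in α-cdKO samples, log2 fold change −0.51, SE 0.21, unadjusted p = 0.0409, under 0.05 for 6.77% of all genes, adjusted p = 0.703), and Fzd1, Axin1 and Tcf7l2 did not overlap between groups, against 36.9% of all genes. Axin2 in activated-like cells gave −0.20, and 0.13 without α-cdKO 1. In chaperone-led, cycling-like and differentiated-like cells, where 0.18%, 0.0563% and 0.0102% of all genes passed, no member passed either (9, 7 and 8 tested), and the values with an unadjusted p under 0.05, a class that held 8.1%, 8.17% and 3.31% of all genes in these states, were Lrp5 in chaperone-led cells (−0.54, adjusted p = 0.583), Tcf7l2 in cycling-like cells (0.53, adjusted p = 0.593) and Tcf7l1 in differentiated-like cells (−0.89, adjusted p = 1.0).

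Whether the genotype difference itself differed between activated-like and quiescent-like cells was tested with an interaction term. For Axin2 the genotype difference was 1.12 higher on the log2 scale in activated-like cells (SE 0.69, unadjusted p = 0.124, adjusted p = 1, edgeR). The smallest unadjusted p among the members was 0.0895, for Lrp6 (0.35). Of 12685 genes, 1 passed (0.00788%), so the state pattern of these genes was not shown to differ between genotypes. The mean share of thinned quiescent-like cells with an Axin2 UMI was 0.727% in control and 0.263% in α-cdKO samples, with an exact permutation p of 0.333, the smallest that 2 samples against 2 can give, so that test could not pass. Thinned to 4000 UMIs, the shares were 1.32% and 0.892% (p = 0.667 by the same exact permutation test).

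The other Wnt genes were read from 8 lists, in the order of the pathway. Of the 104 genes, 6 had 0 UMIs in myogenic cells, 33 had 1 to 100 and 42 had more than 1000. Between genotypes over all myogenic cells, 0 of 74 tested list genes passed by edgeR, and 4 had an unadjusted p under 0.05, as did 7.05% of all genes. These 4 were the ligands Wnt4 (−0.75) and Wnt5b (0.93), the receptor Fzd6 (1.30) and the Wnt co-receptor Ptk7 (0.56). The 2 largest values rested on few molecules. In control 1, control 2, α-cdKO 1 and α-cdKO 2, Fzd6 had 4, 6, 22 and 19 UMIs and Wnt5b had 10, 11, 31 and 35. Wnt4 stood at 41.0 and 20.5 CPM in control and at 18.4 and 18.6 in α-cdKO samples, so its size rested on control 1. Among β-catenin targets, 0 of 13 tested passed, with 9 positive and a median log2 fold change of 0.16, against −0.01 for all genes. In quiescent-like cells, 0 of 59 tested list genes passed and 6 had an unadjusted p under 0.05, as did 7.89% of all genes. There the target list had 8 of 10 values positive with a median of 0.45, against −0.01 for all genes in these cells and with the opposite sign to Axin2. None of the 10 passed. Among those 6 were 3 targets: Ccnd1 (0.51), a cyclin of the G1 phase, Cd44 (0.43), a hyaluronan receptor, and Ccn4 (0.60), a matricellular protein.

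Between states the Wnt lists changed in both directions. Of 63 list genes tested, 22 were called higher and 32 lower in activated-like than in quiescent-like cells, where 75.5% of all genes were called. The planar polarity branch, a β-catenin-independent Wnt route, was lower for 6 of 6 tested genes (median −1.53), among them Vangl2 (−1.80), Prickle2 (−1.27), Prickle3 (−1.12) and Celsr2 (−0.93). Both genes of Wnt secretion were lower: Wls, the carrier of lipidated Wnts, by −0.67, and Porcn, the enzyme that attaches the lipid, by −0.82. Of 6 ligands, Wnt4 (−1.02) and Wnt9a (−2.64) were lower and Wnt11 (0.79) was higher. Of 9 other receptors, 3 were higher and 5 lower, with Ror1 (0.79) and Lgr4 (0.58) up and Ryk (−0.27) down. Among 4 inhibitors, 2 were higher, including Kremen1 (1.01), which removes Lrp6 from the surface in the presence of Dkk proteins.

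Downstream of the receptors the picture was also mixed. Of 17 cytoplasmic genes, 9 were higher, such as the casein kinases Csnk1a1 (1.32), Csnk1e (1.29) and Csnk1d (1.11) and β-catenin itself (Ctnnb1, 1.01), and 7 were lower, such as Gsk3b (−1.23), the kinase that marks β-catenin for degradation. Of 12 nuclear partners, 3 were higher and 7 lower, with the repressors Hbp1 (1.14) and Tle4 (1.01) up and Tle5 (−0.78) and Tle3 (−0.52) down. The 10 tested β-catenin targets split evenly, 4 higher and 4 lower. Cd44 (3.00), the growth regulator Myc (2.06) and Ccn4 (1.64) rose in activated-like cells, whereas Ccnd1 (−2.27) fell together with Axin2. The listed targets therefore did not move as 1 group between these states.

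Genes whose levels followed those of a member over the 20 combinations of sample and state were sought among 6528 genes, for the 5 members with enough molecules. Axin1 was followed most closely by Eif4a3 (Pearson r = 0.93), Umps (0.92) and Kif2a (0.92). Lrp6 was followed by 4932438A13Rik (0.93), Pitpnc1 (0.88) and Adamts1 (0.88), and Tcf7l1 by Myo5a (0.91), Adgra2 (0.88) and Rnf168 (0.87). Tcf7l2 was followed by Rfx7 (0.86), Mxd1 (0.82) and Setd1b (0.82), and Fzd4 by Tns2 (0.85), Abca5 (0.84) and Pkd1 (0.84). The points share 4 libraries and differ in depth, so these values only describe likeness.

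Cells outside the myogenic clusters gave a frame for the receptors. In the 178 endothelial cells Fzd4, known for its part in retinal vessel growth, stood at 122, 61.3, 104 and 103 CPM in control 1, control 2, α-cdKO 1 and α-cdKO 2, above every myogenic state of the same sample. Endothelial markers summed to 35.6, 16.9, 26.3 and 16.6 CPM in quiescent-like cells (Pecam1 the most abundant, with 5, 5, 5 and 7 of 8 markers detected), against 12877, 10028, 11300 and 11908 in endothelial cells. In the endothelial cluster mural markers summed to 3318, 8277, 3063 and 2322, highest in control 2, where Fzd4 was lowest, and the part of this make-up in the Fzd4 level was not tested. Between states, endothelial and tenocyte markers were lower in activated-like than in quiescent-like cells of all 4 samples, as Axin2 and Fzd7 were. In activated-like cells the endothelial markers summed to 3.47, 3.28, 4.27 and 3.94 CPM and the tenocyte markers to 1.96, 1.70, 0.763 and 1.21. Fibro-adipogenic markers there summed to 431, 419, 395 and 635 and mural markers to 154, 131, 222 and 166, also below the quiescent-like sums. The most abundant mural marker in activated-like cells was Notch3 in control 1 (78.4 CPM) and Acta2 in the other samples. Immune markers summed to 4.67, 3.90, 1.21 and 1.70 and mature muscle markers to 205, 612, 411 and 209.98 in activated-like cells. In the 136 immune and glial cells Fzd7 stood at 19.7, 19.1, 38.1 and 17.3 and Fzd1 at 39.4, 7.63, 36.0 and 138, from few cells. Immune markers in quiescent-like cells summed to 4.92, 5.58, 1.74 and 2.42. Mature muscle markers there summed to 230, 645, 491 and 225 (Acta1 the most abundant), fibro-adipogenic markers to 897, 1031, 843 and 1471 (Col3a1) and mural markers to 243, 294, 433 and 331 (Acta2). Mural markers, 5 of 6 detected in each sample, were highest in α-cdKO 1 and lowest in control 1. This was the same order over the 4 samples as Fzd7 in quiescent-like cells and the reverse of Axin2. Immune markers were lower in both α-cdKO samples than in both control samples. So were tenocyte markers (13.6 and 15.3 in control, 10.5 and 10.3 in α-cdKO samples, Scx the most abundant). Glial markers were lower as well (4.92 and 7.28 in control, 4.27 and 3.96 in α-cdKO samples). The part of these markers in the differences was not tested.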

How the data were processed

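Single-cell RNA-seq was available for 4 samples (2 control, 2 α-cdKO). The deposited tables hold raw UMI counts per gene and cell barcode made by the authors with Cell Ranger 7.1.0, per the file headers, on mouse gene annotation of GRCm38. The submitters' processing notes also name Seurat 4.0.3. Whether intronic reads were counted is not given in the sources used here. UMIs are counted once per molecule near the 3′ end, so levels were not divided by length and are not ranked between genes. Counting intervals and floors cover counting error only.

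A cell was kept with a minimum of 1000 UMIs and 400 genes and a mitochondrial share below 15%. Seurat 5.3.0 scaled counts to 10000 per cell and chose 2000 variable genes. The 10 genes and the other 104 Wnt genes were left out of the clustering (0 of the 10 were among the variable genes), which used 30 principal components, a Harmony-type correction by sample and Louvain resolution 0.2. A cluster was named when at least 3 markers of a state were raised 1.5-fold (with 5 CPM added to both sides), and clusters led by at least 5 heat-shock genes among 10 leading genes were called chaperone-led; these scoring rules were set after the data had been seen. Doublet calls by Scrublet (scanpy 1.11.5) marked 1, 5, 0 and 1 cells, which is too few to have worked, so the top scores were removed as an alternative instead.

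UMI counts were summed per sample and state. edgeR 4.0.16 (filterByExpr, TMM, quasi-likelihood test, Benjamini-Hochberg adjustment over all genes) compared genotypes in the 4 samples and, with the sample as a block, 4 states. DESeq2 1.42.0 was an alternative. In simulated data the genotype test over all myogenic cells recovered 82.1% of the genes given a log2 change of 1 and 98.9% of those given 2. The activated-like over quiescent-like test recovered 88.3% and 100%, and the interaction 25% and 86.0%. The simulation gave all genes the same dispersion and all libraries the same gene profile, and changed only genes above a minimum count. No genotype test within a state was simulated, so these shares do not describe Axin2 in quiescent-like cells. Replicate numbers did not pair the samples (correlation of deviations −0.188 over 14637 genes). Nothing in the labels says more of the replicates than that each pooled 2 littermates. Likeness used log2(CPM + 1) of genes with a mean of at least 10 CPM.

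Members, gene lists and tests were chosen with earlier results of these data known. Named genes were all 10 members, the targeted genes, of each Wnt list up to 4 genes of highest mean CPM and any called between genotypes, and for likeness the 3 best correlated genes of each member with a mean of at least 10 CPM. Gsk3b, Wnt5b, Fzd6, Ptk7 and the label markers were named after their values had been seen. Promoter windows were read from RefSeq. Figures were drawn with matplotlib 3.10.9.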

Additional observations from a re-analysis of the deposited data

How the results depend on the processing

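Over all alternatives, values that answer a comparison kept direction and side of the threshold 190 times, a count moved by over 1.5 times 51 times, and a sign turned 2 times. Values of single genes stayed as reported 482 times, turned sign 23 times, lost a call 26 times and gained one 10 times. In the comparison of activated-like with quiescent-like cells, Fzd7, Axin2, Axin1, Lrp6 and Fzd1 passed under every alternative run. Between genotypes no member passed in any state under any alternative run. Leaving out 1 sample leaves a group of 1, which is then assumed to vary like the other group. The fit limited to Xist-only cells was not run, since 3 samples held at most 1 such cell. Depth limits Lef1, Axin2 and Fzd7 most.

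The number of genes called between genotypes moved as follows. In all myogenic cells it was 26, and became 121 with DESeq2, 13 without the filter on low counts, 0 with all kept cells, 50 without cycling-like and differentiated-like cells, and 0 to 65 when 1 sample was left out. In quiescent-like cells it was 12, and became 22 with DESeq2, 5 in Y-linked-only cells and 13 to 126 when 1 sample was left out. In activated-like cells it was 21, and became 63 with DESeq2 and 0 to 124 when 1 sample was left out. DESeq2 gave 18 in cycling-like cells, 14 in differentiated-like cells and 2 for the interaction, and leaving out 1 sample gave 4 to 92, 1 to 69 and 0 to 20.

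Replicate numbers did not pair the samples. With the replicate number as a block, 20 genes were called in quiescent-like, 11 in cycling-like and 10 in differentiated-like cells, and Axin2 in quiescent-like cells gave −1.32 (adjusted p = 0.491, edgeR). The crossed pairing, added after the data had been seen, called 214 genes in all myogenic and 6 in quiescent-like cells.

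Counts of members between states moved too. Lower in activated-like than quiescent-like cells were 4 members, 2 without the filter, and 2 to 4 when 1 sample was left out. Higher in cycling-like than activated-like cells were 2 members, 8 with library sizes only, and 1 each with DESeq2, at least 2000 UMIs per cell, top doublet scores removed, all variable genes or no integration, and 0 to 3 when 1 sample was left out; without the filter 2 were lower. Higher in differentiated-like than activated-like cells was 1 member, 4 with library sizes only and 2 without the filter; 5 were lower, 1 with library sizes only and 3 to 5 when 1 sample was left out. With library sizes only, the median of all genes moved from 0.12 to 0.73 in cycling-like and from 0.03 to 0.40 in differentiated-like over activated-like cells, which moves all members alike; the cause of the other moves was not tested.

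Signs turned mostly where the change was near 0. Library sizes only gave −0.14 for Tcf7l1 in activated-like over quiescent-like cells and 0.37 for both Axin1 and Tcf7l2 in cycling-like over activated-like cells. In that last comparison Fzd4 gave −0.053 with DESeq2, −0.073 without the filter, −0.024 with at least 2000 UMIs, −0.026 with doublets removed, −0.030 with all variable genes, −0.063 without integration and −0.15 to 0.13 when 1 sample was left out, and Lrp5 gave −0.0029 with DESeq2, −0.018 without the filter and −0.20 to 0.19 when 1 sample was left out. Leaving out 1 sample also gave −0.027 to 0.15 for Tcf7l1 in activated-like over quiescent-like cells and −0.00057 to 0.28 for Tcf7l2 in differentiated-like over activated-like cells. Between genotypes in all myogenic cells, Lrp6 gave 0.0034 with all kept cells, 0.029 without cycling-like and differentiated-like cells, 0.13 in Y-linked-only cells and −0.21 to 0.14 when 1 sample was left out, Fzd4 gave −0.46 to 0.20, and Axin2 in activated-like cells gave −0.65 to 0.13. The difference in the share of cells with a UMI (α-cdKO minus control, percentage points) turned sign as well. Without thinning, it turned to −0.0262 for Axin1 and −0.0029 for Lef1 in all myogenic cells. It also turned to −1.90 for Tcf7l1 and −0.302 for Fzd1 in quiescent-like cells, and to −0.0533 for Axin2 in activated-like cells. Thinned to 4000 UMIs, it turned to −1.52 for Tcf7l1 in quiescent-like cells. In activated-like cells it then turned to −0.0056 for Axin2 and 0.0666 for Lrp6.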
